A study of Mus musculus with 6 samples.

Results

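Grik2, Gabrr2, Kcng2, Gnal and Rasd2 encode a glutamate receptor subunit, a GABA receptor subunit, a potassium channel subunit, a G protein alpha subunit and a Ras-like GTPase. They are 5 of the 54 genes in a table of islet RNA levels, and were found there by their Ensembl identifiers. The 5 were taken by name from a table whose genes had already been picked on the comparison of the diets, so the diet differences below are a description, with no test. Pancreatic islets are the endocrine cell clusters of the pancreas. They were isolated from C57BL/6 mice fed normal food (control diet, 3 libraries) or high-fat food (high-fat diet, 3 libraries). The sample labels give 22 weeks of either food, while the design text of the series gives 27 weeks. No label gives the sex or age of the mice or how many stand behind a library, and nothing says that the replicates are separate animals, so the SDs below may be technical. Levels are FPKM, a fragment count normalised to transcript length and sequencing depth, and n = 3 for every mean ± SD.

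Islet cells are electrically excitable, and insulin release follows from depolarisation and calcium entry. Beta cells make and release GABA, alpha cells release glutamate, and islet cells carry receptors for both. Ionotropic receptors are channels opened by the transmitter itself. G proteins instead carry the signal of a receptor to enzymes such as adenylyl cyclase, whose product cAMP amplifies glucose-stimulated insulin release. Several of the 5 genes are better known from retina, olfactory epithelium or striatum than from islets.

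Promoter sequences from RefSeq (GRCm38.p6) matched 3 of the 5 genes, all but Kcng2 and Gnal. They are shown because Gabrr2 and Rasd2, the pair of genes higher on the high-fat diet, have upstream sequences of very different base composition. Each is read 5′ to 3′ on the strand of its gene, ends before the first base that GENCODE M21 places in a transcript of that gene, and has its CG dinucleotides in capitals.
Gabrr2, chr4:33062862-33062998, plus strand: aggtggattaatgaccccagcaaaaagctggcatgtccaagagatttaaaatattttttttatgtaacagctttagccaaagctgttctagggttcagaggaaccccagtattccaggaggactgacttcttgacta
Rasd2, chr8:75213694-75213943, plus strand: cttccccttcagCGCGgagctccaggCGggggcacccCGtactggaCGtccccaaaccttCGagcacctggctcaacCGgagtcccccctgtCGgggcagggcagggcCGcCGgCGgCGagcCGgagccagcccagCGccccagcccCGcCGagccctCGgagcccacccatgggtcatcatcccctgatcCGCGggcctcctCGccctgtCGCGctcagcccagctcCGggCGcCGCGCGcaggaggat
Grik2, chr10:49788767-49789004, minus strand: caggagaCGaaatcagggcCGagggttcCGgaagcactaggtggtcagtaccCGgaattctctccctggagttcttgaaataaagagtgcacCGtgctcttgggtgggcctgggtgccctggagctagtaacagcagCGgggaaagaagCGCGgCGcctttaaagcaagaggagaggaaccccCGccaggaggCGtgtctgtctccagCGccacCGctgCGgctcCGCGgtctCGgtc
The 137 printed bases of Gabrr2 hold 0 CG dinucleotides, against 27 in the 250 bases of Rasd2 and 17 in the 238 bases of Grik2. Over the full 250 bases before the RefSeq start, the GC content was 47.6% for Gabrr2, 75.2% for Rasd2 and 62.8% for Grik2, and the median of 32841 mouse promoters was 52.4%. The observed over expected CG ratio was 0.0758 for Gabrr2, 0.784 for Rasd2 and 0.817 for Grik2, against a median of 0.374. Of all promoters, 11.2% had a lower CG ratio than Gabrr2, 79.8% a lower one than Rasd2 and 82.3% a lower one than Grik2. RefSeq lets the genes Gabrr2 and Grik2 begin further upstream than these windows, so each window stands at 1 annotated start and need not be the one used in islets. In the 250 bases, 6 motifs were searched on both strands. CCAAT occurred once, in Gabrr2, starting 109 bases before the RefSeq start, and 33.9% of all promoters hold it. That match lies past the printed bases, within the Gabrr2 gene as GENCODE M21 annotates it. CACGTG (6.02% of all promoters), TGACG (17.8%), GGGCGG (32.7%), TATAAA (12.4%) and AGGTCA (14.0%) did not occur in the 3 windows.

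All 5 genes stood at low levels. Their means over the 6 libraries were 0.752 FPKM for Rasd2, 0.679 for Gnal, 0.227 for Kcng2, 0.208 for Grik2 and 0.145 for Gabrr2. These are ranks 31, 33, 45, 46 and 48 of 54 from the highest, and 0 of the 5 reached a mean of 1 FPKM, which 26 of the 54 genes did. The depth behind a value is unknown, since the table holds no read totals. Grik2, Kcng2 and Gnal were lower and Gabrr2 and Rasd2 higher on the high-fat diet. The diets did not overlap for any of the 5, but the same was true of 94.4% of the 54 genes (61.1% in the higher and 33.3% in the lower direction), and the genes had been picked for that contrast. The authors' p-values lay under 0.01 for 100% of the genes, so these counts say nothing particular about the 5.

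**Figure D1:**
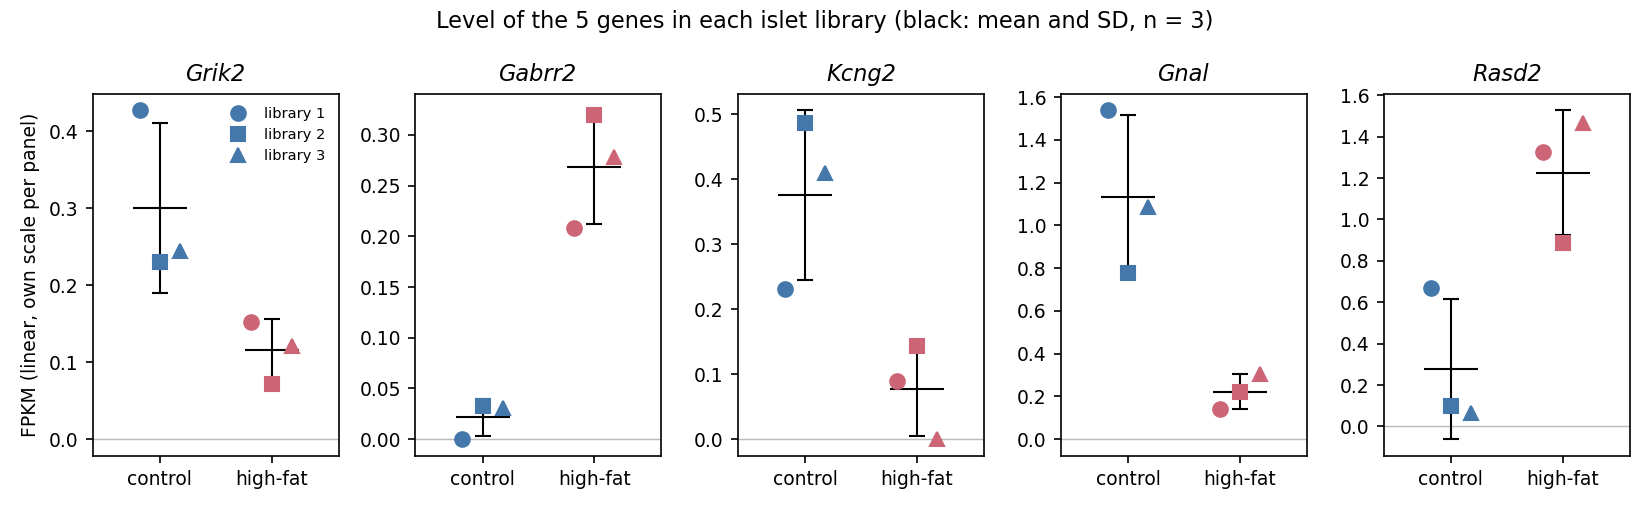
FPKM of each gene in the 3 control (blue) and 3 high-fat (red) islet libraries, with mean and SD in black and a linear axis of its own in each panel. Grik2, Kcng2 and Gnal are lower and Gabrr2 and Rasd2 higher in the high-fat libraries, and control library 1 of Rasd2, at 0.669 FPKM, stands apart from the other controls.

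Among the transmitter receptors, Grik2 encodes GluK2, a subunit of kainate receptors, which are tetrameric cation channels opened by glutamate. Its FPKM was 0.427, 0.2296 and 0.244 in control libraries 1, 2 and 3, and 0.153, 0.0722 and 0.122 in high-fat libraries 1, 2 and 3. Control library 1 was the highest of the 6, and the lowest control library was 1.503 times the highest high-fat library. The means were 0.300 ± 0.1103 FPKM on the control and 0.1155 ± 0.0406 FPKM on the high-fat diet, a ratio of 2.60, control over high-fat. The difference of mean log2(FPKM + 0.1), high-fat minus control, was -0.88 (SE 0.27). Grik2 lies on chromosome 10 from 49094833 to 49788766 on the minus strand of GRCm38, spans 694 kb and has a longest annotated transcript of 17 exons and 9427 bases. Of 20 ionotropic glutamate receptor and auxiliary subunit genes listed for comparison, Grik2 was the single one in the table.

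Gabrr2 encodes the rho2 subunit of pentameric GABA-gated chloride channels, a class best known from the retina. In control libraries 1, 2 and 3 its FPKM was 0, 0.03322 and 0.03123, and in high-fat libraries 1, 2 and 3 it was 0.2079, 0.3193 and 0.2778. The control libraries were at or near 0, and the lowest high-fat library was 6.26 times the highest control library, the widest such gap of the 5 genes. The means were 0.02148 ± 0.01863 FPKM and 0.2683 ± 0.05629 FPKM. Their ratio, high-fat over control, was 12.5, the highest of the 54 genes in that direction, but it is a ratio to a mean close to 0: the log2 difference was 1.60 (SE 0.19) with the pseudocount of 0.1 FPKM. Gabrr2 is the lowest of the 54 genes in control library 3 and second lowest in control library 2. By its longest annotated transcript of 1.93 kb, the values of those libraries come to 0.0604 and 0.0642 fragments per 1000000, and those of the high-fat libraries to between 0.402 and 0.617. The gene lies on chromosome 4 from 33062999 to 33095865 on the plus strand. Of 26 genes of GABA receptors, synthesis and transport, it was the single one in the table, and none of 49 further transmitter receptor genes was in it.

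Set against each other within a library, a comparison in which the scaling of the library cancels, Grik2 was 6.91 and 7.81 times Gabrr2 in control libraries 2 and 3. Gabrr2 is listed at 0 in control library 1, which gives no ratio. In high-fat libraries 1, 2 and 3 it was Gabrr2 that stood higher, at 1.36, 4.42 and 2.28 times Grik2. The level of the glutamate receptor gene thus lay above that of the GABA receptor gene in 3 of 3 control libraries and below it in 3 of 3 high-fat libraries. Both genes had been picked on the comparison of the diets, so the direction of this shift follows from the choice of the genes.

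Kcng2 encodes Kv6.2, a modulatory subunit that forms no channel of its own and joins Kv2 subunits, which carry much of the repolarising potassium current of beta cells. Control libraries 1, 2 and 3 had 0.2313, 0.486 and 0.40996 FPKM of Kcng2. High-fat libraries 1, 2 and 3 had 0.08951, 0.1429 and 0. Control library 1, the highest control for Grik2, Gnal and Rasd2, was here the lowest, yet it was 1.62 times the highest high-fat library. The means were 0.376 ± 0.131 FPKM and 0.0775 ± 0.0722 FPKM, a ratio of 4.85, control over high-fat. The log2 difference was -1.48 (SE 0.45). The ratio moved to 8.40 without high-fat library 2 and to 3.23 without high-fat library 3, the one listed at 0. Kcng2 lies on chromosome 18 from 80294546 to 80364254 on the minus strand, and 272 bases, 9.10% of its exon sequence, are also exon of D330025C20Rik on the opposite strand. No source used here gives the strand setting of the counting, so reads from those bases could belong to either. Of 43 voltage-gated potassium channel genes Kcng2 was the single one in the table, and none of 24 genes of other beta cell channels and exocytosis was in it.

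Gnal encodes G alpha olf, which activates adenylyl cyclase and is the main stimulatory G protein of olfactory neurons and striatum. It was the most abundant of the 5 genes in every control library. Its FPKM was 1.54, 0.777 and 1.09 in control libraries 1, 2 and 3, against 0.141, 0.2204 and 0.307 in high-fat libraries 1, 2 and 3. The lowest control library was 2.53 times the highest high-fat library. With means of 1.13 ± 0.384 and 0.223 ± 0.0830 FPKM, the ratio was 5.09, control over high-fat, and the log2 difference was -1.92 (SE 0.34). Its rank among the 54 genes went from 19 to 21 in the control libraries to between 42 and 45 in the high-fat libraries. Gnal lies on chromosome 18 from 67088216 to 67226792 on the plus strand, with 8 annotated transcripts, and 852 bases, 7.63% of its exon sequence, are also exon of Mppe1 on the opposite strand. The values are per gene and do not say which transcripts were present. Of 33 genes of heterotrimeric G proteins and their chaperones Gnal was the single one in the table, and none of 31 cAMP signalling genes was in it, so adenylyl cyclases and the stimulatory alpha subunit gene Gnas were not analysed here.

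Rasd2 encodes Rhes, a Ras-like GTPase enriched in striatum, where it is known to dampen receptor-driven cAMP signalling. Its control libraries 1, 2 and 3 had 0.669, 0.1001 and 0.06376 FPKM. High-fat libraries 1, 2 and 3 had 1.33, 0.886 and 1.47 FPKM. The high-fat libraries were all above the controls, but control library 1 was far above the other controls, and the lowest high-fat library was only 1.32 times as high, the narrowest gap of the 5 genes. The means were 0.278 ± 0.339 and 1.23 ± 0.303 FPKM, a ratio of 4.42, high-fat over control. The control SD was 122% of its mean, and the log2 difference was 2.15 (SE 0.73), the least precise of the 5. Leaving out control library 1 raised the ratio to 15.0. Rasd2 lies on chromosome 8 from 75213944 to 75224113 on the plus strand and spans 10.2 kb. Of 33 Ras-like GTPase and RGS genes it was the single one in the table.

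**Figure D2:**
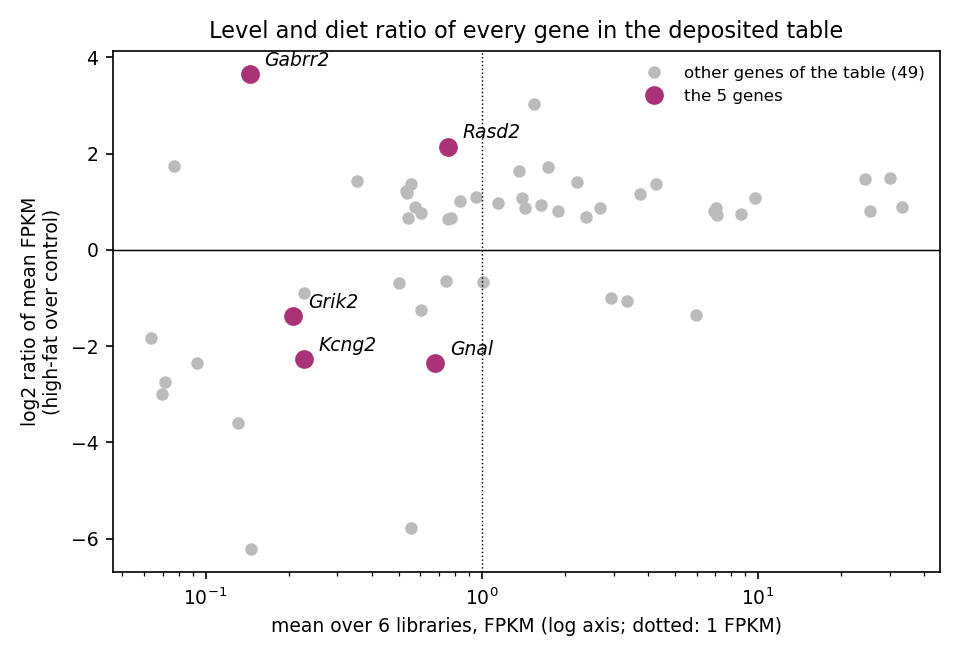
Log2 ratio of mean FPKM, high-fat over control, against the mean level over the 6 libraries (log axis) for all 54 genes, with the 5 genes in purple and the dotted line at 1 FPKM. The 5 genes lie left of the dotted line, Gabrr2 has the highest ratio of the table in this direction, and Gnal, Kcng2 and Grik2 rank 6, 8 and 10 from the lowest.

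Set beside the table, the 5 genes lay among its low members, and the size of their diet ratios varied. The median log2 ratio of means over the 54 genes was 0.81. In the same measure Gabrr2 stood at 3.64, Rasd2 at 2.14, Grik2 at -1.38, Kcng2 at -2.28 and Gnal at -2.35. Gabrr2 ranked 1 and Rasd2 3 from the highest. Gnal ranked 6, Kcng2 8 and Grik2 10 from the lowest, where 18 genes were lower on the high-fat diet. This measure has no pseudocount, so a mean close to 0, as for Gabrr2, makes it large. The 28 genes under 1 FPKM split evenly, with 14 in each direction. In the authors' deposited table the p-values were 0.00103 for Grik2, 0.00115 for Rasd2, 0.00334 for Gabrr2, 0.00400 for Kcng2 and 0.00409 for Gnal. They are not adjusted, and no source used here names the test behind them.

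Because FPKM is per length, the levels of the 5 genes can be ordered within each library. In control libraries 2 and 3 the order from the highest was Gnal, Kcng2, Grik2, Rasd2, Gabrr2. In control library 1 it was Gnal, Rasd2, Grik2, Kcng2, Gabrr2. Thus Gnal was the highest and Gabrr2 the lowest in every control library, while the ranges of Kcng2, Grik2 and Rasd2 overlapped. In all 3 high-fat libraries Rasd2 was the highest. Below it, the ranges of Gabrr2 and Gnal overlapped, as did those of Gnal and Grik2, of Gnal and Kcng2, and of Grik2 and Kcng2. The summed level of the 5 genes was 2.11 ± 0.665 FPKM on the control diet against 1.91 ± 0.266 FPKM on the high-fat diet, a difference smaller than the SD of either diet.

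The make-up of that sum differed more between the diets than its size. Gnal made up 53.7%, 47.8% and 59.2% of the sum in control libraries 1, 2 and 3, and 7.36%, 13.4% and 14.1% in high-fat libraries 1, 2 and 3. Rasd2 made up 23.3%, 6.16% and 3.47% in the control libraries and 69.2%, 53.99% and 67.5% in the high-fat libraries. Gnal, which raises cAMP, was 2.30, 7.77 and 17.0 times Rasd2 in control libraries 1, 2 and 3. Rasd2 was 9.40, 4.02 and 4.78 times Gnal in high-fat libraries 1, 2 and 3. These shares and ratios do not depend on the scaling of a library, but their direction follows from the choice of the genes.

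**Figure D3:**
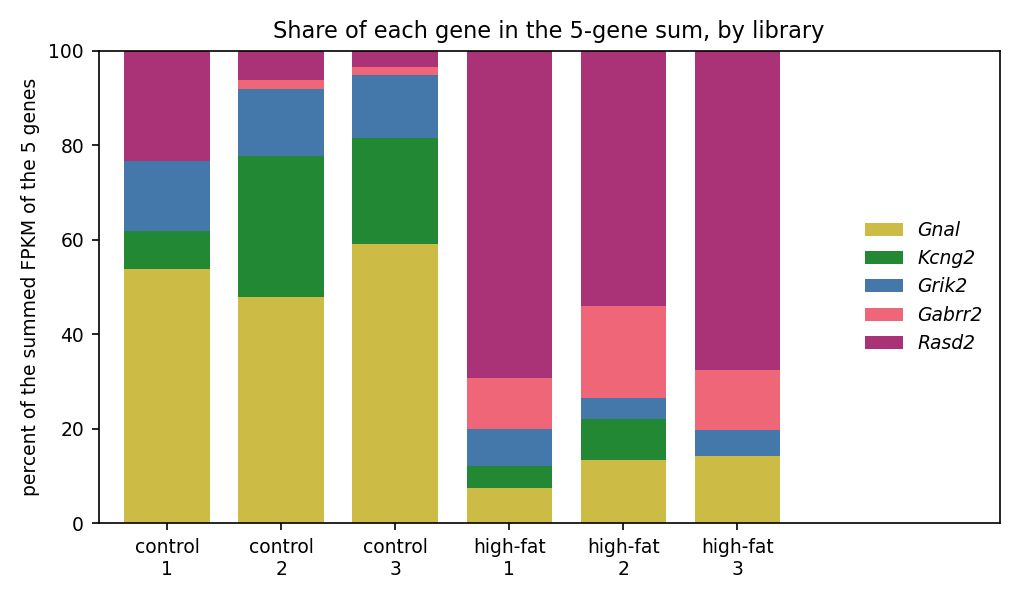
Percent of the summed FPKM of the 5 genes taken by each gene in the 3 control and 3 high-fat libraries. Gnal (yellow) takes 47.8% to 59.2% of the sum in control libraries, and Rasd2 (purple) takes 53.99% to 69.2% in high-fat libraries.

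The library level and the markers of other cells were compared between the diets. The median over the 54 genes was 1.09, 0.548 and 0.642 FPKM in control libraries 1, 2 and 3, and 1.27, 0.982 and 1.304 FPKM in high-fat libraries 1, 2 and 3. Control library 1 was the highest control for 46 of the 54 genes, Grik2, Gnal and Rasd2 among them. Without it, the ratio of means was 2.05 for Grik2 and 4.18 for Gnal, control over high-fat, and 15.0 for Rasd2, high-fat over control. In bulk islet RNA, fewer cells of a type and less RNA per cell cannot be told apart. None of 10 beta cell, 5 alpha cell and 4 delta and PP cell markers was in the table, and none of 10 neuron and 8 Schwann cell markers, so neither the islet label nor nerve tissue in the preparations could be checked. The same held for 10 acinar, 7 duct, 7 endothelial, 9 stellate cell and fibroblast and 5 erythroid markers. Of the other cells, 2 of 10 mesothelial markers were present, Upk1b and Has1, with a summed level of 1.14 to 1.76 FPKM over the controls, against 0.702 to 0.951 FPKM over the high-fat libraries. Upk1b was listed at 0 in high-fat libraries 1 and 2. Of 11 leukocyte markers Camp was present, at 0.111 to 0.372 FPKM over the controls, against 0 to 0.0601 FPKM over the high-fat libraries, with a 0 in high-fat libraries 1 and 2. These markers were lower on the high-fat diet together with Grik2, Kcng2 and Gnal, and their part in those differences was not tested. Every gene of the table had been picked on the comparison of the diets, so any marker present in it would differ between them.

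The table was searched for the genes most like each of the 5 over the 6 libraries, by Pearson's r of log2(FPKM + 0.1). The values are a description: the 6 points fall into 2 diets, and every gene of the table was picked for differing between them. For Grik2 they were Clec11a, a secreted lectin gene (r = 0.99), Ceacam16, an adhesion molecule gene (0.96), and Mctp2, a membrane C2-domain gene (0.95). For Gabrr2 they were the co-chaperone gene Dnajb4 (0.99), the chaperone gene Hsph1 (0.96) and the defensin gene Defb1 (0.95). For Kcng2 they were the integrin gene Itgb6 (0.87), Selenbp1 (0.81) and the transcriptional regulator gene Prdm16 (0.80), the loosest likeness of the 5. For Gnal they were Lrtm2 (0.99), Camp (0.98) and Cer1, a secreted BMP antagonist gene (0.97). For Rasd2 they were Gpr161, an orphan G protein-coupled receptor gene, the amine oxidase gene Aoc2 and the kinase gene Mapkapk3 (0.99 each). With each diet's mean removed, r was 0.97, 0.91 and 0.82 for the 3 genes of Grik2 and 0.98 each for the 3 of Rasd2. For the 3 genes of Gabrr2 it was 0.97, 0.02 and 0.14, and for those of Kcng2 0.34, -0.06 and 0.02. For the 3 genes of Gnal it was 0.92, 0.93 and 0.77. Control library 1 was the highest control for 46 of the 54 genes, Grik2, Gnal and Rasd2 among them. How far that 1 library makes these values was not tested.

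The directions of all 5 differences held under each pseudocount, scaling and left-out library tried, while their sizes did not. Since the diets did not overlap for any of the 5 genes, only the 2 scalings could have turned a direction. Dividing each library by its median over the 54 genes brought the median log2 difference of the table from 0.78 to 0.14. Under that centring the log2 differences were 1.28 for Gabrr2, 1.70 for Rasd2, -1.34 for Grik2, -1.90 for Kcng2 and -2.48 for Gnal. Under quantile normalization, which keeps the ranks within a library, the diets overlapped for Grik2 and Kcng2 and stayed apart for Gabrr2, Gnal and Rasd2.

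**Figure D4:**
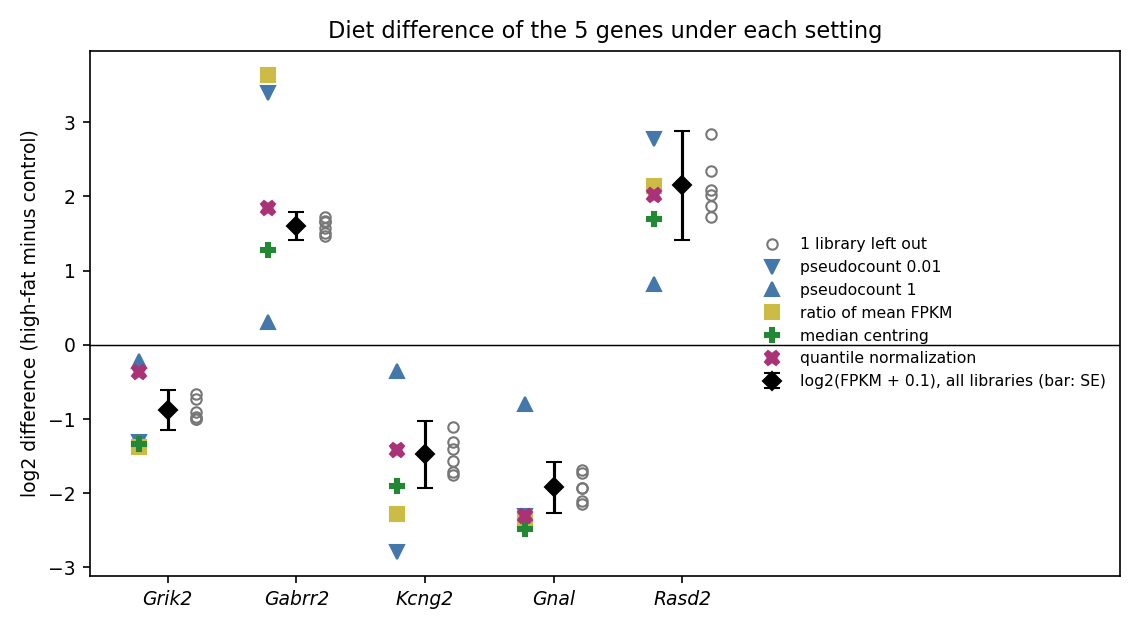
Log2 difference, high-fat minus control, of each gene on log2(FPKM + 0.1) with its SE (black), under other pseudocounts and scalings (left of it) and with 1 library left out (open circles, right of it). No setting crosses 0, and the pseudocount moves Gabrr2 most, from 0.31 with 1 FPKM to 3.39 with 0.01 FPKM.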

How the data were processed

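Total RNA of islets, taken up in Trizol, was made into libraries with a Vazyme total RNA kit, per the labels' protocols. Trimmomatic 0.36, HISAT2 2.1.0, StringTie 1.3.3 and GRCm38 are named in the submitters' processing notes, with no role or order. The deposited table holds, per the file headers, 1 FPKM column per library and the authors' group means and SDs in FPKM. It also holds the authors' p-value, their log2 fold change and a score and effect size whose formulas are not given. The deposited log2 fold change equalled the log2 ratio of mean FPKM recomputed here. No source used here gives the annotation release or the strand setting.

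From FPKM, means, SDs, ratios of means and differences of mean log2(FPKM + 0.1) were computed (Python 3.11.15, pandas 2.3.3), with no filter on low values, since a minimum mean of 1 FPKM leaves none of the 5 genes. The pseudocount understates differences of low genes. The computation of the difference was tested without the pseudocount, on simulated data drawn with known differences. The effect of the pseudocount on low levels was not part of that test. Symbols of all 54 genes came from the reference table, positions and exon overlaps from GENCODE M21 (1-based). Named genes were the 5, the members of 20 comparison lists, and the 3 genes most like each of the 5. The genes and lists were chosen with earlier results of these data known. Alternatives were other pseudocounts, the ratio of means, 2 scalings and each library left out.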

Additional observations from a re-analysis of the deposited data

How the results depend on the processing

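Of 55 recomputed log2 differences of the 5 genes, 0 turned direction, 38 moved by less than the SD within diets and 17 by more. The 38 include every setting with 1 library left out, where 3 libraries per diet allow no larger move. All 17 came from another pseudocount, the ratio of means or a scaling. The diets did not overlap for any of the 5, so only the 2 scalings could have turned a direction. With a pseudocount of 0.01 FPKM they moved to -1.31 for Grik2, 3.39 for Gabrr2 and -2.79 for Kcng2. With 1 FPKM they moved to -0.22 for Grik2, 0.31 for Gabrr2, -0.35 for Kcng2, -0.79 for Gnal and 0.82 for Rasd2. As the log2 ratio of mean FPKM they were -1.38 for Grik2, 3.64 for Gabrr2, -2.28 for Kcng2 and -2.35 for Gnal. These moves come with the measure and its pseudocount, which weighs most on low levels. Median centring gave -1.34 for Grik2, 1.28 for Gabrr2 and -2.48 for Gnal, and quantile normalization -0.37 for Grik2 and 1.84 for Gabrr2. The median of all 54 genes moved from 0.78 to 0.14 under median centring and to 0.15 under quantile normalization. Both scalings rest on 54 picked genes, most of them higher on the high-fat diet. The diets did not overlap in 51 of 54 genes, in 39 under median centring, in 27 after quantile normalization, in 54 without control library 1 or without high-fat library 2, in 51 without any 1 of the other 4 libraries, and in 24 when a minimum mean of 1 FPKM left 26 genes. That minimum gave no value for the 5 genes. Leaving out 1 library moved the log2 differences by less than the SD within diets. With 3 libraries per diet no larger move was possible, so this says nothing about how stable the sizes are. The ratio of means ran from 3.19 to 15.0 for Rasd2, from 8.33 to 17.2 for Gabrr2, from 3.23 to 8.40 for Kcng2, from 4.18 to 6.28 for Gnal and from 2.05 to 3.10 for Grik2. The low end of Gabrr2 came without control library 1, which is listed at 0. No paired analysis was possible because the labels give the libraries of the 2 diets no shared numbers. Unknown depth limits all 5 genes, and 2 of them, Gabrr2 and Kcng2, hold a 0, for which a failed estimate and a lack of reads cannot be told apart.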

Other observations

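Within the diets the 5 genes varied in different directions, given here as values with no test. With each diet's mean removed from log2(FPKM + 0.1), Pearson's r over the 6 libraries was -0.96 between Grik2 and Gabrr2 and 0.90 between Grik2 and Rasd2. It was -0.80 between Gabrr2 and Rasd2 and -0.76 between Kcng2 and Gnal. The other pairs were weaker: -0.69 for Kcng2 and Rasd2, -0.65 for Grik2 and Kcng2, and 0.62 for Gnal and Rasd2. The weakest were 0.44 for Gabrr2 and Kcng2, 0.41 for Grik2 and Gnal, and -0.18 for Gabrr2 and Gnal. All values of a library share its scaling, and 3 libraries stand behind each diet. In control library 1, Gabrr2 is listed at 0, while Grik2 and Rasd2 have their highest control values. The weight of that library in these r values was not tested. Inside a diet the order of the libraries was not the same for Grik2 and Rasd2: control library 3 had more Grik2 but less Rasd2 than control library 2.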
